A study of Mus musculus with 24 samples.

Results

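RNA levels of 8 genes of extracellular matrix breakdown were described in MC38 mouse colorectal cancer cells: the matrix metalloproteinase genes Mmp2, Mmp3, Mmp9, Mmp10, Mmp13 and Mmp14 and the inhibitor genes Timp1 and Timp2. They were taken by name, and all 8 were found among the 52636 genes of the expression table. The table covers 24 samples, 3 from each of 8 lines derived from the C57BL/6 line MC38. MC38-WT is unmodified and was grown without puromycin, which all other lines received. MC38-COSMC KO, MC38-CMAS KO and MC38-DKO were made with CRISPR-Cas9 against C1galt1c1 (the gene of COSMC, a chaperone needed to elongate O-glycans), Cmas (an enzyme that activates sialic acid) and both, and MC38-MOCK#1 had no target. The lines labelled FUT4 and FUT9 were made with CRISPR-dCas-VPR, which switches on a gene at its own locus, here a fucosyltransferase, and MC38-MOCK#2 is the matching line with no target. MC38-COSMC KO cells were sorted in bulk for strong lectin binding, and whether the other lines are bulk populations or clones is not given in the sources used here. The labels give passages 4, 5 and 6 for MC38-MOCK#1 and the knockouts, 6, 7 and 8 for MC38-MOCK#2 and MC38-FUT9, 7, 8 and 9 for MC38-WT, and 7, 8 and 7 for the line labelled FUT4.

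Matrix metalloproteinases are zinc enzymes that cut collagens and other matrix proteins. Most are secreted as inactive precursors, while Mmp14 stays in the cell membrane. Timp proteins bind the active site and block it, and Timp2 together with Mmp14 also serves to activate the Mmp2 precursor at the cell surface. In colorectal tumours these enzymes are best known for their part in invasion, and much of the RNA often comes from stromal cells.

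Values are normalized counts, that is, read counts scaled by the authors with 1 factor per library and rounded. Totals lay between 10911849 and 12263307 per sample and estimated depth between 6759066 and 16231182 reads, so that 1 read was worth 0.756 to 1.67 normalized counts. C1galt1c1 averaged 144 in MC38-COSMC KO against 238 in MC38-MOCK#1 (adjusted p = 0.0128, limma) but 182 in MC38-DKO (adjusted p = 0.459), so RNA does not mark that target in MC38-DKO. Cmas averaged 112 in MC38-CMAS KO and 133 in MC38-DKO against 395 in MC38-MOCK#1. Fut4 was listed at 1, 0 and 1 in the line labelled FUT4 and at 0 in the other 21 samples. Fut9 stood at 209, 171 and 186 in the line labelled FUT4 and at 955, 641 and 676 in MC38-FUT9, with at most 7 in the remaining samples. The RNA therefore goes against the FUT4 label, and the line is called by its label only. Of 8 epithelial markers 7 stayed under 10 in every sample, Epcam at 3 or less, while Krt20 averaged 393 in the line labelled FUT4. Among 6 mesenchymal markers Vim averaged 22110 to 28993 per line. Thy1 was at 0 in every sample, and the 5 other mesenchymal markers (Vim, Col1a1, Col1a2, Pdgfra and Pdgfrb) each differed among the lines. The summed level of 6 myeloid markers lay between 25 and 71 per sample and that of 3 endothelial markers between 0 and 19.

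Levels of the members differed widely. Per kb of exon, the median over 24 samples was 1108 normalized counts for Timp1, 522 for Timp2 and 194 for Mmp14, against 2.97 for Mmp2, 1.55 for Mmp9, 0.581 for Mmp10, 0.555 for Mmp3 and 0 for Mmp13. Mmp14 made up 75.2% to 99.3% of the summed level per kb of the 6 proteinases. The summed level per kb of the 2 inhibitors was 4.68 to 15.1 times that of the 6 proteinases. Over all 24 samples, 7 of 8 members differed among the lines (limma F test, adjusted p from 1.79e-11 for Timp2 to 0.0206 for Mmp9), beside 48.2% of the 20944 genes tested. Mmp13 had an adjusted p of 0.0623. In RNA of whole cultures, fewer expressing cells and less RNA per cell cannot be told apart.

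The stromelysins Mmp3 and Mmp10 and the collagenase Mmp13 are neighbours on chromosome 9 of GRCm38, on the plus strand, from 7272514 to 7283331 (Mmp13), 7445822 to 7455975 (Mmp3) and 7502352 to 7510240 (Mmp10). Their promoters are shown because these are the members with RNA mainly in 1 line, MC38-MOCK#2. Each stretch holds the 120 bases before the start that RefSeq gives for the gene (RefSeq, GRCm38.p6, plus strand, chr9:7445702-7445821, chr9:7502222-7502341 and chr9:7272394-7272513). The AP-1 motif TGAGTCA or its reverse complement TGACTCA and the letters of a TATA box, TATAAA, are in capitals.
Mmp3: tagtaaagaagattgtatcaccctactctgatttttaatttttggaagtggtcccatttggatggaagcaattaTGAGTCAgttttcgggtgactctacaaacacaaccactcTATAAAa
Mmp10: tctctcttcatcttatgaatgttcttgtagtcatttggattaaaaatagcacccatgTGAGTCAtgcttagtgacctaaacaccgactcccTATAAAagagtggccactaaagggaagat
Mmp13: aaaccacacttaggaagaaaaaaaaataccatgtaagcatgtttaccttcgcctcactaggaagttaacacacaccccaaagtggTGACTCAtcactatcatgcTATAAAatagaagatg
The AP-1 motif began at position -46 in Mmp3, -63 in Mmp10 and -35 in Mmp13, counted back from the base before the start. TATAAA began at -7, -29 and -16, and whether it acts as a TATA box was not tested. The window of Mmp10 ends at 7502341, before the gene start of 7502352 given above, so its positions depend on the start used. On either strand, the AP-1 motif occurred in 2.3% and TATAAA in 6.34% of the same windows of 32851 promoters, and both together in 0.213%. The windows of Mmp14, Timp1 and Timp2 held neither motif, which says only that these letters are not there. Mmp2 and Mmp9 had no entry.

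Mmp3, which cuts proteoglycans and activates other proteinases, was present mainly in MC38-MOCK#2, at 29, 24 and 84 normalized counts. It stood at 0, 0 and 1 in MC38-MOCK#1, at 0, 0 and 3 in the line labelled FUT4 and at 0, 0 and 1 in MC38-FUT9. The samples of MC38-MOCK#2 lay above those of every other line, of which MC38-WT was the next with 2, 3 and 10. In estimated reads over 3 samples, MC38-MOCK#2 had 116 and MC38-MOCK#1 had 1, a ratio of 133 after scaling (exact 95% interval 23.4 to 5302, covering counting error only), and the difference was called (limma, adjusted p = 0.00417). Against 3 reads in the line labelled FUT4 the ratio was 43.4 (14.5 to 213, adjusted p = 0.00648), and against 1 read in MC38-FUT9 it was 155 (27.3 to 6185, adjusted p = 0.00156). The call in the line labelled FUT4 was lost without sample 1 of that line (adjusted p = 0.0549).

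Mmp10, the second stromelysin, followed at a lower level. It stood at 4, 8 and 12 in MC38-MOCK#2, and no sample of any other line exceeded 3. It fell in the line labelled FUT4 (1, 0 and 2, adjusted p = 0.0413) and in MC38-FUT9 (0, 1 and 0, adjusted p = 0.00934), with read ratios of 7.85 (2.35 to 41.1) and 28.1 (4.52 to 1163). Against MC38-MOCK#1 (0, 0 and 3) the ratio was 8.03 (2.4 to 42.1) and the difference did not pass (adjusted p = 0.0675), except without sample 3 of MC38-MOCK#1 (0.0373) or with all 8 lines fitted together (0.00594). Of the 50-base windows of Mmp10 transcripts 8.37% also occur in Mmp3, and 8.39% of those of Mmp3 occur elsewhere, so reads there may be split between genes. The call in the line labelled FUT4 was lost without any 1 sample (adjusted p 0.0563 to 0.126) and with eBayes without a trend (0.0665), and that in MC38-FUT9 was lost without its sample 1 (0.050002).

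Mmp13, a collagenase of fibrillar collagen, was at 0 in 14 of 24 samples. In MC38-MOCK#2 it stood at 1, 4 and 23, so that sample 3 carried most of the reads and the samples overlapped with those of MC38-WT (0, 2 and 3). No comparison called it (adjusted p = 0.159 against MC38-MOCK#1, 0.138 for the line labelled FUT4 and 0.113 for MC38-FUT9). Sample 3 of MC38-MOCK#2 was the highest of its line for all 8 members. It had the lowest estimated depth of that line (8180471 reads, against 11038663 and 12072012) and stood farthest of the 24 from the other samples of its line. Without it, Mmp2 (adjusted p = 0.00732), Mmp3 (0.0160) and Mmp14 (0.0359) were still called against MC38-MOCK#1, and Timp2 was not (0.105). Of the calls against MC38-MOCK#2, that of Mmp10 in the line labelled FUT4 was lost without it (0.110). With all 8 lines in a single fit Mmp13 was called in MC38-MOCK#2 (0.0261) and in both FUT lines (0.0221 and 0.0179).

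**Figure D1:**
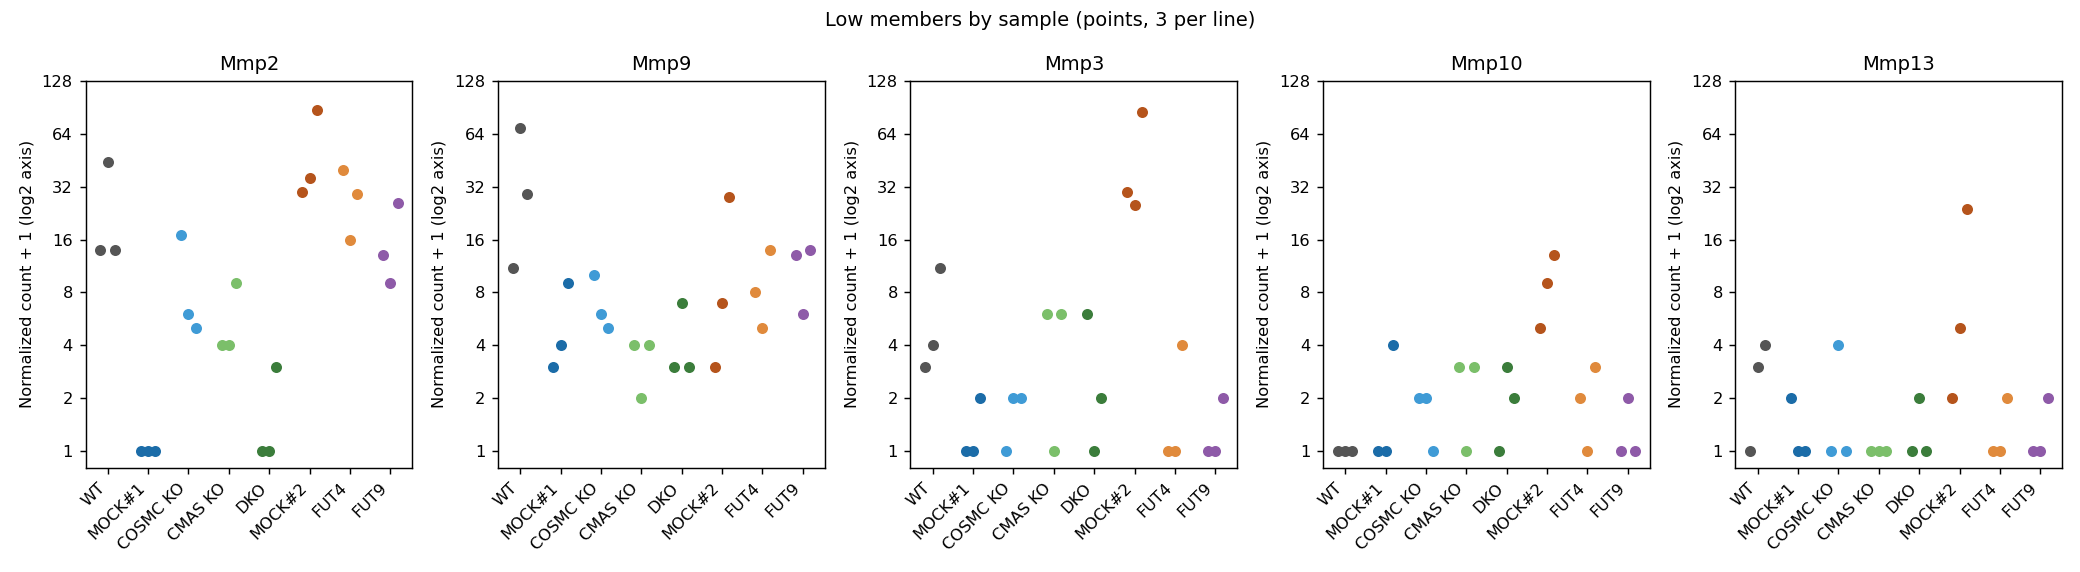
Normalized count plus 1 (log2 axis) of Mmp2, Mmp9, Mmp3, Mmp10 and Mmp13 in each sample, 3 points per line. Mmp3 is at 24 to 84 normalized counts in MC38-MOCK#2 and at 10 or less elsewhere, and Mmp2 is listed at 0 in all 3 samples of MC38-MOCK#1.

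The gelatinase Mmp2 (chromosome 8, 92827291 to 92853420, plus strand) cuts denatured collagen and basement membrane. It was listed at 0 in all 3 samples of MC38-MOCK#1 and at 0, 0 and 2 in MC38-DKO. It stood at 29, 35 and 87 in MC38-MOCK#2, at 13, 43 and 13 in MC38-WT and at 39, 15 and 28 in the line labelled FUT4. MC38-FUT9 had 12, 8 and 25, MC38-COSMC KO 16, 5 and 4, and MC38-CMAS KO 3, 3 and 8. MC38-MOCK#1 and MC38-DKO thus stood below every sample of the other 6 lines. With 3 reads over the line as the floor of MC38-MOCK#1 (0.942 normalized counts), the observed mean of Mmp2 was 53.4 times that floor in MC38-MOCK#2 (limma, adjusted p = 0.00168). It was 24.4 times the floor in MC38-WT (0.00775), 8.84 times in MC38-COSMC KO (0.0134) and 4.95 times in MC38-CMAS KO (0.0262). The counting error of these means is not included, so the values are no lower limits. Without the highest sample of each line, sample 3 of MC38-MOCK#2, sample 2 of MC38-WT, sample 1 of MC38-COSMC KO and sample 3 of MC38-CMAS KO, these values were 34.0, 13.8, 4.77 and 3.183. The 2 reads of MC38-DKO lie under that floor, and the gene did not pass the filter there. Neighbouring lines in the order of the means overlapped, except MC38-CMAS KO and MC38-DKO. Mmp2 did not pass in MC38-FUT9 against MC38-MOCK#2 (log2 fold change -1.66, SE 0.54, adjusted p = 0.0664), although the samples did not overlap. It passed there with a mean of at least 10 (0.0358), with samples rescaled to the same total (0.0485) and with all 8 lines fitted together (0.0471). Without 1 sample, the call was lost in 4 of 6 fits in MC38-COSMC KO (up to 0.0744), in 5 of 6 in MC38-CMAS KO (up to 0.115) and in 4 of 6 in MC38-WT (up to 0.0970).

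Mmp9, the other gelatinase (chromosome 2, 164940780 to 164955850, plus strand), is typical of neutrophils and macrophages. It was highest in MC38-WT with 10, 68 and 28, and MC38-MOCK#1 had 2, 3 and 8. These samples did not overlap, but with this spread the difference did not pass (log2 fold change 2.56, SE 0.73, adjusted p = 0.0993), except with all 8 lines in a single fit (0.0192). MC38-MOCK#2 had 2, 6 and 27, and the remaining 5 lines stayed between 1 and 13. In the test over all lines its call was lost without sample 2 (adjusted p = 0.0987) or sample 3 (0.0637) of MC38-WT.

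Mmp14, the membrane-type proteinase (chromosome 14, 54431612 to 54445364, plus strand), was lower in 3 of the lines. It stood at 747, 746 and 893 in MC38-MOCK#1, at 854, 705 and 839 in MC38-CMAS KO and at 700, 696 and 715 in MC38-DKO. It stood at 1394, 1226 and 1140 in MC38-COSMC KO, at 1182, 1273 and 1705 in MC38-MOCK#2 and at 975, 1563 and 1306 in MC38-WT. The line labelled FUT4 had 1273, 1111 and 1315 and MC38-FUT9 had 1141, 1222 and 1538. No sample of the first 3 lines reached the lowest of the other 5. Mmp14 rose 1.58-fold in MC38-COSMC KO against MC38-MOCK#1 (log2 0.66, SE 0.10, adjusted p = 0.00877) and was 1.73-fold higher in MC38-MOCK#2 (log2 0.79, SE 0.15, adjusted p = 0.0203). In MC38-WT a log2 difference of 0.67 (SE 0.17) missed the threshold (adjusted p = 0.0764). The log2 difference was 0.01 in MC38-CMAS KO (95% interval -0.25 to 0.26) and -0.17 in MC38-DKO (-0.38 to 0.03). With eBayes without a trend the calls in MC38-COSMC KO (adjusted p = 0.0570) and MC38-MOCK#2 (0.0688) were lost, and the first was lost without sample 1 (0.0609) or 2 (0.0681) of MC38-MOCK#1 or sample 2 of MC38-COSMC KO (0.0761) and the second in 4 of 6 fits without 1 sample (up to 0.109). With all 8 lines in a single fit Mmp14 passed in MC38-WT (0.00405).

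**Figure D2:**
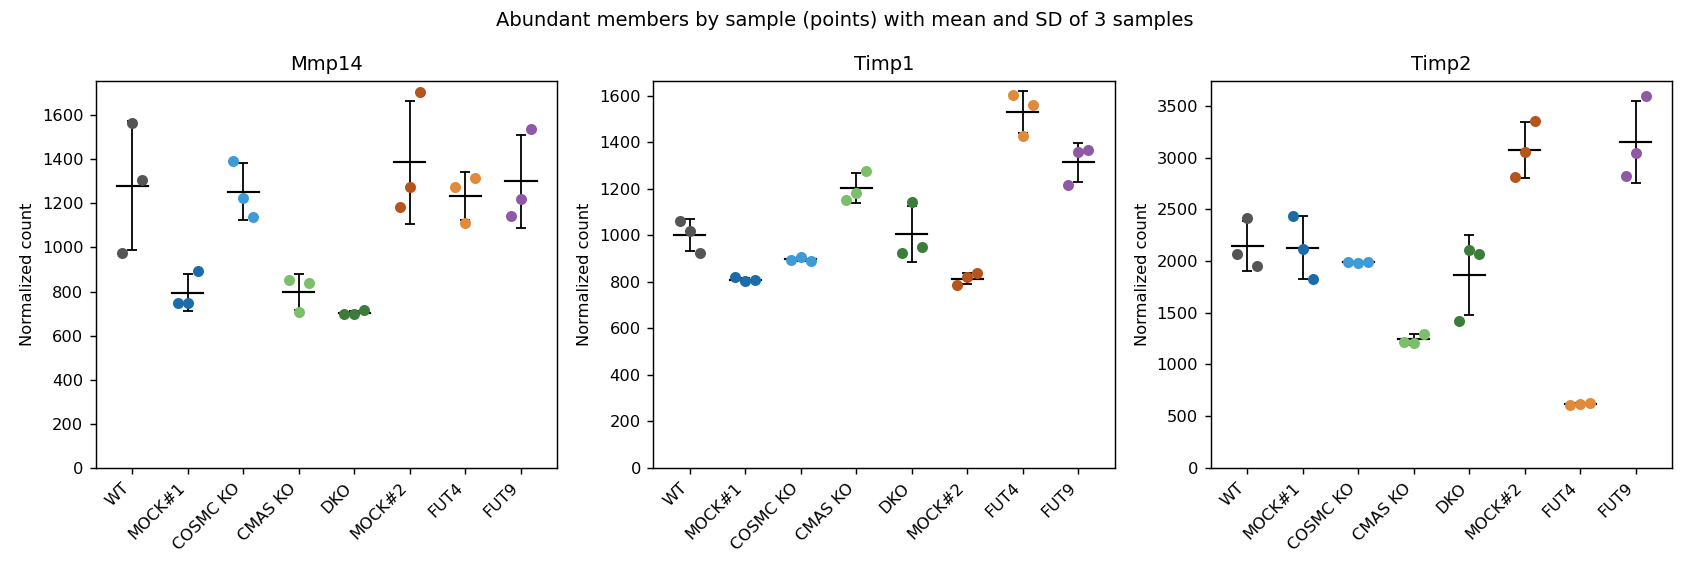
Normalized counts of Mmp14, Timp1 and Timp2 in each sample (points) with the mean and SD of 3 samples per line (bars). Mmp14 is lowest in MC38-MOCK#1, MC38-CMAS KO and MC38-DKO, and Timp2 lies between 612 and 629 in the line labelled FUT4 and at 1211 or more elsewhere.

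Timp1, a secreted inhibitor of most metalloproteinases (chromosome X, 20870166 to 20874735, plus strand), stood at 819, 802 and 808 in MC38-MOCK#1 and at 787, 819 and 836 in MC38-MOCK#2, and these lines did not differ beyond their spread (log2 0.01, 95% interval -0.13 to 0.15). It rose to 1151, 1181 and 1277 in MC38-CMAS KO, 1.48-fold over MC38-MOCK#1 (log2 0.57, SE 0.06, adjusted p = 0.00539), a call lost without sample 2 of MC38-MOCK#1 (0.0589) or of MC38-CMAS KO (0.0525). Against MC38-MOCK#2 it rose 1.88-fold in the line labelled FUT4 (1603, 1427 and 1561, log2 0.91, SE 0.07, adjusted p = 0.000498) and 1.61-fold in MC38-FUT9 (1215, 1358 and 1368, log2 0.69, SE 0.07, adjusted p = 0.00102). The rise in both lines was called in each fit that left out a sample. MC38-COSMC KO had 895, 906 and 890, above every sample of MC38-MOCK#1, with a log2 difference of 0.15 (SE 0.05) that did not pass (adjusted p = 0.119). MC38-WT (1062, 1017 and 925) and MC38-DKO (923, 1144 and 950) were also above MC38-MOCK#1 in all samples without passing (adjusted p = 0.0770 and 0.437). Timp1 passed in MC38-WT once all 8 lines were fitted together (0.00966).

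Timp2 (chromosome 11, 118301069 to 118355740, minus strand) showed the largest change of the 3 abundant members. It stood at 2809, 3059 and 3355 in MC38-MOCK#2 and at 612, 614 and 629 in the line labelled FUT4, a fall of 4.95-fold (log2 -2.31, SE 0.08, adjusted p = 7.56e-05). In MC38-FUT9 it was 2822, 3046 and 3593, with a log2 difference of 0.03 (95% interval -0.22 to 0.29). It also fell 1.70-fold in MC38-CMAS KO (1215, 1211 and 1299 against 2438, 2118 and 1831 in MC38-MOCK#1, log2 -0.77, SE 0.11, adjusted p = 0.0112), a call lost in 4 of 6 fits without 1 sample (up to 0.0940) and with eBayes without a trend (0.0515). The level in MC38-MOCK#2 was 1.45-fold that in MC38-MOCK#1 (log2 0.54, SE 0.12, adjusted p = 0.0342), a call that was lost in each of the 6 fits without 1 sample (0.0534 to 0.138). MC38-COSMC KO (1991, 1979 and 1993), MC38-DKO (1420, 2105 and 2073) and MC38-WT (2073, 2419 and 1950) overlapped with MC38-MOCK#1.

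Timp2 overlaps Cep295nl on the same strand (20 to 138 normalized counts) and Timp1 overlaps Syn1 on the opposite strand (0 to 9). The authors left out reads that fell in several genes. Genes within 500 kb of Timp2 with a mean of at least 10 over both lines were compared between the line labelled FUT4 and MC38-MOCK#2. There were 14, and their log2 differences had a median of -0.40 and ran from -2.11 to 0.30. Over all 13445 genes with such a mean the median was -0.01. The lowest neighbour, C1qtnf1 (means 4 and 29), reached that mean only through MC38-MOCK#2. The same window was also taken for Timp2 in MC38-CMAS KO against MC38-MOCK#1 (13 genes, median -0.22, from -1.58 to 0.18). For Timp1 in the line labelled FUT4 against MC38-MOCK#2 the median of 16 genes was -0.01 (-2.57 to 0.32). For Mmp3 in MC38-MOCK#2 against MC38-MOCK#1 that of 7 genes was 0.07 (-0.48 to 0.61). The cause was not tested.

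Within a sample, the ratio of Timp1 to Timp2 per kb does not depend on the scaling of the library. Timp1 was the higher in all 24 samples. It was 1.09 to 1.23-fold Timp2 in MC38-MOCK#2, 4.16 to 4.31 in MC38-CMAS KO and 10.2 to 11.5 in the line labelled FUT4, and lay between 1.47 and 2.85 in the other 5 lines. In the balance of the inhibitors, the line labelled FUT4 and MC38-CMAS KO therefore stood above every other sample. MC38-MOCK#2, the control of the line labelled FUT4, stood below every other sample.

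**Figure D3:**
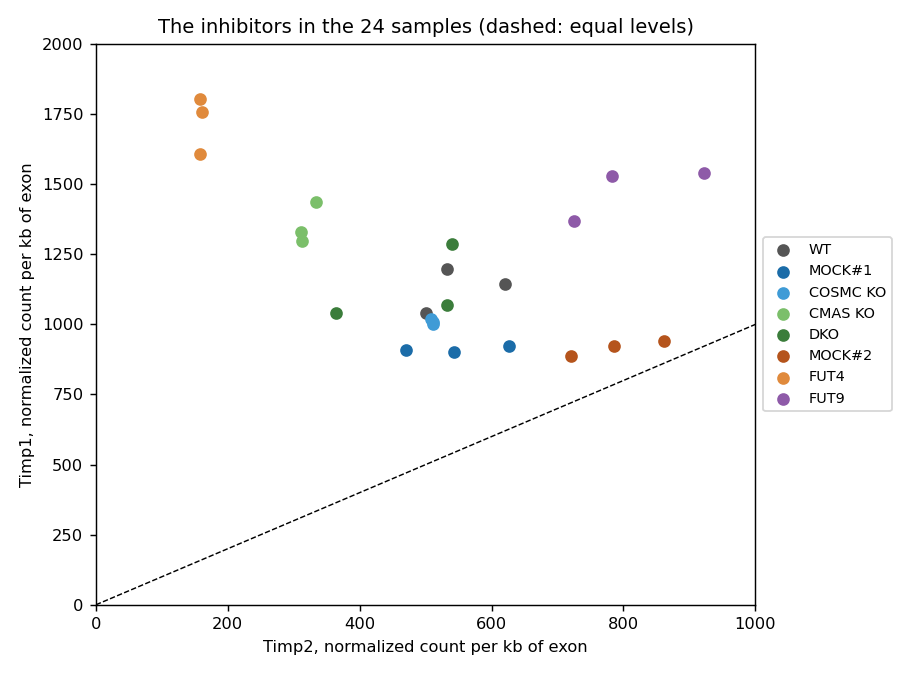
Timp1 against Timp2 in normalized counts per kb of exon, 1 point per sample, coloured by line, with a dashed line at equal levels. All 24 points lie above that line, and the 3 samples of the line labelled FUT4 stand apart at the upper left with ratios of 10.2 to 11.5.

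By comparison, the 2 members called in MC38-COSMC KO against MC38-MOCK#1 were both higher (Mmp2 and Mmp14), beside 6.17% of 22172 genes called higher and 5.39% called lower. In MC38-CMAS KO, 2 members were higher (Mmp2 and Timp1) and 1 was lower (Timp2), beside 3.02% of 22024 genes higher and 2.73% lower. In MC38-DKO, limma called 0 members, and 1 (Timp1) had an unadjusted p under 0.05 (0.0103), beside 7.51% of all genes tested. There, 0.023% of 21738 genes were called higher and 0.069% lower. In MC38-WT, 1 member was higher (Mmp2), beside 2.7% of 21621 genes higher and 2.81% lower. All these values share the 3 samples of MC38-MOCK#1, and the contrast with MC38-WT cannot be told apart from growth without puromycin and from the passage number.

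MC38-MOCK#2 differed from MC38-MOCK#1 in 4 members, Mmp2, Mmp3, Mmp14 and Timp2, all higher, beside 5.3% of 21667 genes called higher and 6.02% called lower. Both are controls with no target gene. Their difference cannot be told apart from the CRISPR system used or the passage number. The members that fell against MC38-MOCK#2 in the line labelled FUT4 were Mmp3, Mmp10 and Timp2, and 1 rose, Timp1, beside 8.04% of 21734 genes lower and 8.1% higher. In MC38-FUT9, Mmp3 and Mmp10 fell and Timp1 rose, beside 12% of 21480 genes lower and 12.1% higher. Both contrasts share the samples of MC38-MOCK#2, in which Mmp3 and Mmp10 were higher than in all other lines, MC38-MOCK#1 included.

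**Figure D4:**
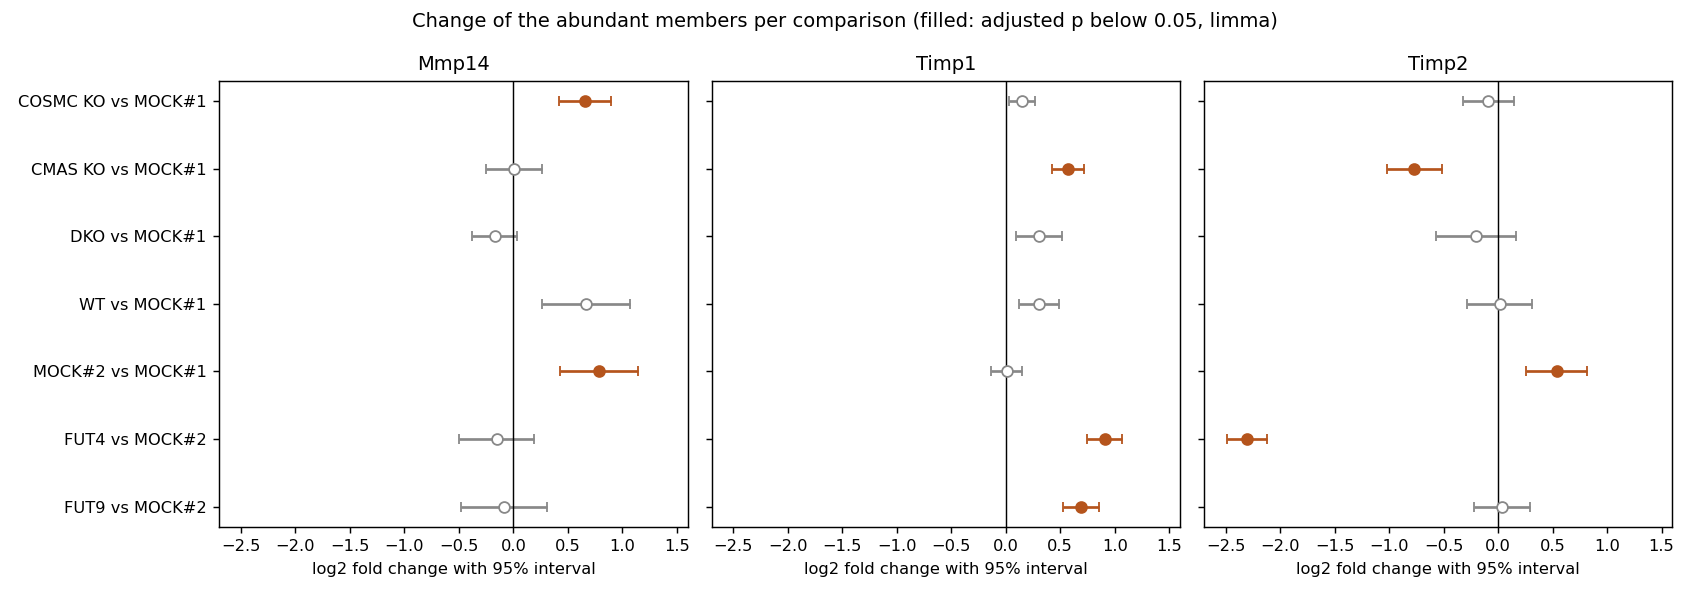
Log2 fold change (point) with 95% interval (bar) of Mmp14, Timp1 and Timp2 in the 7 pairwise comparisons, filled where the adjusted p of limma is below 0.05. The interval of Timp2 in the line labelled FUT4 (-2.49 to -2.12) lies apart from all others.

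Whether the COSMC label went with the same change in cells with and without the CMAS label was tested as a difference of differences over 12 samples. The change from MC38-CMAS KO to MC38-DKO differed from that from MC38-MOCK#1 to MC38-COSMC KO for 4 members, beside 22.1% of 21396 genes. Mmp14 rose from a mean of 795 to 1253 in the pair without the CMAS label and stood at 799 and 704 in the pair with it (difference of log2 changes -0.83, SE 0.14, adjusted p = 0.000666). Mmp2 went from 0 to 8.33 in the first pair and from 4.67 to 0.667 in the second (adjusted p = 0.000755). For Timp1 the difference was -0.41 (SE 0.11, adjusted p = 0.0177), with means of 810 and 897 against 1203 and 1006. For Timp2 it was 0.65 (SE 0.18, adjusted p = 0.0201), with means of 2129 and 1988 against 1242 and 1866, and this call was lost without sample 1 of MC38-MOCK#1 (adjusted p = 0.0530) or without sample 2 (0.0552) or 3 (0.0515) of MC38-DKO. With eBayes without a trend, Timp1 (0.0608) and Timp2 (0.0752) were not called. Each line was made once, so these contrasts compare lines.

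The other 17 metalloproteinase genes were mostly silent. Of these, 12 stayed under 10 in every sample. Mmp16, a second membrane-type enzyme, rose against MC38-MOCK#1 (mean 15) in MC38-COSMC KO (mean 125, log2 3.0, adjusted p = 0.000856), MC38-CMAS KO (92.0, log2 2.56, adjusted p = 0.00427) and MC38-WT (119, log2 2.91, adjusted p = 0.00423). It averaged 6.00 in MC38-DKO and did not pass there (adjusted p = 0.459). Against MC38-MOCK#2 (15.7) it rose in MC38-FUT9 (444, log2 4.78, adjusted p = 0.000103) and fell in the line labelled FUT4 (4.67, adjusted p = 0.0333). Mmp11, a stromelysin with few matrix substrates, moved the other way, to 1272, 468 and 1292 in the line labelled FUT4 (log2 1.66, adjusted p = 0.0391) and 174, 145 and 167 in MC38-FUT9 (log2 -0.84, adjusted p = 0.0325), from 262, 226 and 408. The called counts of this list were 2 higher of 8 tested in MC38-COSMC KO (Mmp15 and Mmp16), beside 6.17% of all genes. They were 1 higher of 8 in MC38-CMAS KO and in MC38-WT, beside 3.02% and 2.7%. Against MC38-MOCK#1 they were 0 of 9 in MC38-DKO, beside 0.023% of all genes called higher and 0.069% lower. They were 0 of 8 in MC38-MOCK#2, beside 5.3% higher and 6.02% lower. In each FUT line 1 of 7 was higher and 1 lower, beside 8.1% and 8.04% in the line labelled FUT4 and 12.1% and 12% in MC38-FUT9.

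Timp3, the inhibitor that is held in the matrix, ran from 1 to 1570. It stood at 5, 4 and 4 in MC38-MOCK#1, at 5, 3 and 1 in MC38-DKO and at 1, 12 and 4 in the line labelled FUT4. It stood at 761, 943 and 877 in MC38-COSMC KO (log2 7.34, SE 0.16, adjusted p = 3.30e-06), at 957, 1113 and 1186 in MC38-CMAS KO (log2 7.67, SE 0.16, adjusted p = 4.90e-06) and at 519, 615 and 697 in MC38-WT (log2 6.84, SE 0.20, adjusted p = 5.08e-05). MC38-MOCK#2 had 225 to 359 and MC38-FUT9 had 1338, 1535 and 1570. MC38-MOCK#1, MC38-DKO and the line labelled FUT4 thus stood at 12 or less and the other 5 at 225 or more. Reck, a membrane-anchored inhibitor, was highest in MC38-MOCK#1 (6, 12 and 10) and at most 4 in the other lines. Timp4 was too low to pass in any comparison.

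**Figure D5:**
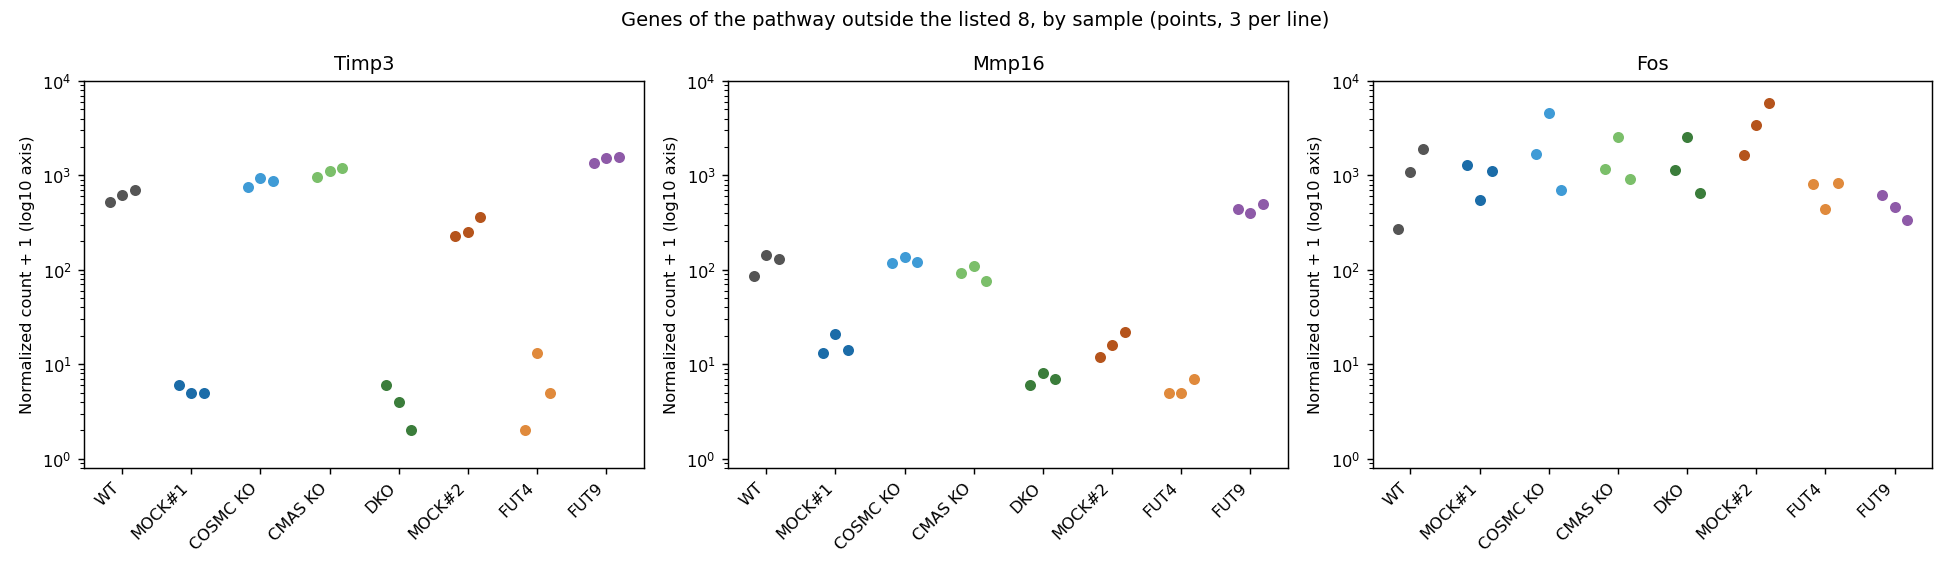
Normalized count plus 1 (log10 axis) of Timp3, Mmp16 and Fos in each sample, 3 points per line. Timp3 is at 12 or less in MC38-MOCK#1, MC38-DKO and the line labelled FUT4 and at 225 or more in the other 5 lines.

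Of 11 genes of plasminogen activation and proprotein cleavage, Plaur, the receptor that holds urokinase at the cell surface, fell in MC38-COSMC KO (log2 -0.56), MC38-CMAS KO (-0.57) and MC38-MOCK#2 (-1.21) and rose in both FUT lines (0.84 and 0.99). Of 14 ADAM and ADAMTS genes, Adamts9, which cuts proteoglycans, rose in MC38-FUT9 (mean 735 against 58.0, log2 3.64, adjusted p = 0.000283) and in the line labelled FUT4 (157, log2 1.43, adjusted p = 0.00659). It was lower in MC38-MOCK#2 than in MC38-MOCK#1 (mean 194, log2 -1.74, adjusted p = 0.00472), whose mean lies above that of the line labelled FUT4. Of 5 cathepsins, Ctsl rose from a mean of 4069 in MC38-MOCK#2 to 7398 and 7551 in the line labelled FUT4 and MC38-FUT9 (adjusted p = 0.000710 and 0.000617). In MC38-DKO, limma called 0 of the 47 tested genes of the 6 lists, the factors below included. Of all genes, 0.023% were called higher there and 0.069% lower. An unadjusted p under 0.05 was found for 5 of the 47 (Mmp16, Reck, Adamts5, Ctsl and Ets2, 10.6%, beside 7.51% of all genes tested). Some mesenchymal markers moved in the same comparisons. Of the 5 tested, Vim was called in none of the pairwise comparisons and Pdgfra only in MC38-FUT9, where it was higher and the only one called. Pdgfrb rose in MC38-COSMC KO, MC38-CMAS KO, MC38-WT and MC38-MOCK#2 against MC38-MOCK#1 (log2 1.93 to 2.87) and fell in the line labelled FUT4 against MC38-MOCK#2 (log2 -2.44). Col1a2 rose in MC38-COSMC KO, MC38-CMAS KO and MC38-WT, Col1a1 rose in MC38-CMAS KO and MC38-MOCK#2, and both fell in the line labelled FUT4. The part of these markers in the results was not tested.

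AP-1 is a dimer of Fos and Jun proteins that binds the motif printed above. Of 13 AP-1, ETS and RUNX factors, 4 fell in the line labelled FUT4 against MC38-MOCK#2 (Fos, Junb, Jund and Ets1) and 1 rose (Fosl1), beside 8.04% of all genes lower and 8.1% higher. In MC38-FUT9, 4 fell and 3 rose, beside 12% lower and 12.1% higher. Fos stood at 1658, 3392 and 5883 in MC38-MOCK#2, at 809, 435 and 836 in the line labelled FUT4 (log2 -2.27, SE 0.47, adjusted p = 0.0192) and at 613, 460 and 334 in MC38-FUT9 (log2 -2.82, SE 0.45, adjusted p = 0.00546). Within MC38-MOCK#2, sample 3 was the highest for Fos, as it was for all 8 members, those without the motif in the window included. Against MC38-MOCK#1, Jun rose in MC38-MOCK#2 (mean 7754 against 2986, adjusted p = 0.0433) and in MC38-COSMC KO (9349, adjusted p = 0.0342), and Fosl1 fell in MC38-MOCK#2 (log2 -0.69, adjusted p = 0.00470). In MC38-COSMC KO, Fos reached 4562 in sample 2, in which Mmp3 stood at 1, Mmp10 at 1 and Mmp13 at 3. These member values rest on few reads in 1 sample. Over the 8 line means of log2 values, the correlation of Mmp3 was 0.84 with Junb, 0.77 with Jund and 0.72 with Fos. It was lower with Fosb (0.63) and Jun (0.45), and was 0.90 with Mmp13 and 0.81 with Mmp10. These values are a description only, since MC38-MOCK#2 is highest in Mmp3, Mmp10, Mmp13, Junb, Jund and Fos. Jun averaged more in MC38-COSMC KO. Whether AP-1 acts on any member in these lines was not tested.

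Among 3792 genes with a mean of at least 10 whose line means ranged over at least 1 log2 unit, those with line means most like Timp2 over the 8 lines were Med28 (r = 0.99), Prdm16 (0.97) and Zfp11 (0.96). For Timp1 they were Chd7 (0.94), Sox2 (0.93) and Hmga1b (0.92), and for Mmp14 H2-DMb1 (0.92), Foxo3 (0.91) and Scara3 (0.91). For Mmp2 they were Zmynd8 (0.97), Slc7a7 (0.95) and Klhl26 (0.94), and for Mmp9 Gm13623 (0.94), Gm6140 (0.90) and Zfa-ps (0.87). Among the members, Mmp2 and Mmp14 had line means correlated at 0.89. All points share the same 24 libraries. The listed genes are the highest of 3792 over only 8 points, where high values can arise by chance, and none was tested.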

How the data were processed

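RNA of 24 samples was sequenced as single reads of 50 bases after a stranded poly(A) library preparation. The authors aligned the reads to GRCm38 with HISAT2 2.0.4, counted them per gene with featureCounts of Subread 1.5.0-p3 without reads that overlap several genes, and normalized them with edgeR 3.18.1. The deposited table analysed here holds normalized counts, which the authors scaled by 1 factor per library and rounded, so its values were treated as a score and not as raw counts. The strand setting of the counting is not given in the sources used here. Of 52636 identifiers 52403 had a symbol.

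The main test was limma 3.58.1 (R 4.3.3, lmFit, eBayes with a trend) and was two-sided, after a pseudocount of 1 was added to each value and log2 taken. Pairwise fits used 6 samples without genes that had more than 4 zeros, the difference of differences 12 samples (8 zeros), and the F test 24 samples (16 zeros). p-values were adjusted by Benjamini-Hochberg over all genes tested, and 0.05 was the threshold. SEs and 95% intervals are on the log2(value + 1) scale, which understates changes of low genes. No log2 fold change is given where every line of a fit averaged under 3. That rule, the values per kb of exon, the windows shared between transcripts, the window of 500 kb and that of 120 bases were chosen after the values were seen. Mmp13 in MC38-CMAS KO and in the difference of differences, Mmp2 in MC38-DKO and Mmp10 in MC38-WT did not pass the filter.

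Depth was estimated from the gaps that scaling and rounding leave among whole values. On 12 simulated factors the estimate was off by at most 0.00526%. An earlier form of the estimator failed that test and was replaced. Reads were estimated by dividing by the factor. Ratios of low genes compare the estimated reads of 3 samples with exact binomial (Clopper-Pearson) intervals, and 3 reads over a line served as the floor of a line at 0. The intervals cover counting error only, as PCR copies were not marked. The floor covers that of the line at 0 and not that of the line set against it. In simulated data for MC38-COSMC KO against MC38-MOCK#1, limma called 139 of 200 genes changed 2-fold in the right direction and 4 unchanged genes of 22358 tested. The changed genes were drawn from well expressed genes only, with normal noise. The result therefore does not cover Mmp2, Mmp3, Mmp9, Mmp10 and Mmp13, which are low in these lines.

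The members and gene lists were chosen with earlier results of these data known. A gene of the list of plasminogen activation is not reported here. The text names all 8 members, the edited genes and, per list and comparison, the called gene with the largest rise and fall whose samples did not overlap, plus for each member with a mean of at least 10 the 3 genes with the most similar line means. Cep295nl, Syn1, Junb, Jund, Fosb, Ets1, Mmp15, Timp4 and the markers were named beyond that rule, some after their values were seen, as were the neighbours of Timp2. Samples of a line were harvested independently per the study, but whether the 2 samples of passage 7 in the line labelled FUT4 were separate harvests is not known, and p-values measure only the spread between samples. Same-numbered samples were checked for pairing. In no comparison did all 3 numbers correlate above 0.1 after the line means were removed. All 3 were positive in MC38-MOCK#2 against MC38-MOCK#1 (0.0821 to 0.254) and in MC38-FUT9 against MC38-MOCK#2 (0.0928 to 0.193). The check does not settle pairing in those comparisons. Alternatives were the pseudocount, the filter, other scalings, eBayes without a trend, the replicate block, all 8 lines in 1 fit and leaving out each sample. Promoters came from RefSeq (GRCm38.p6), where 6 of 8 members matched, and coordinates from the GRCm38 annotation. Python 3.11.15, numpy 2.4.6, pandas 2.3.3, scipy and matplotlib served for the remaining steps.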

Additional observations from a re-analysis of the deposited data

Results flagged for a closer look

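For 4 members the change that went with the COSMC label differed between the lines with and without the CMAS label, by the test of the difference itself (limma, 12 samples). As the change from MC38-CMAS KO to MC38-DKO minus that from MC38-MOCK#1 to MC38-COSMC KO, it was -4.86 on the log2 scale for Mmp2 (adjusted p = 0.000755), a fitted value that rests on a line listed at 0 and is no bound. It was -0.83 for Mmp14 (adjusted p = 0.000666), -0.41 for Timp1 (adjusted p = 0.0177) and 0.65 for Timp2 (adjusted p = 0.0201). Beside these, 22.1% of all genes tested were called in the same contrast.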

How the results depend on the processing

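Depth limits the low members, where a line rests on few reads: over 3 samples a count of 0 in MC38-MOCK#1 allows a mean of up to 0.942 normalized counts, and 1 read in MC38-FUT9 leaves the ratio for Mmp3 anywhere from 27.3 to 6185. Pairwise fits without 1 sample compare 2 samples with 3. A call lost there can reflect the smaller number of samples or the sample left out, and these were not told apart. Leaving out each sample in turn gave the following ranges. The genes called were 675 to 2137 of 2563 in MC38-COSMC KO, 122 to 876 of 1268 in MC38-CMAS KO, 0 to 4 of 20 in MC38-DKO, 31 to 693 of 1192 in MC38-WT, 632 to 1737 of 2454 in MC38-MOCK#2, 1621 to 3112 of 3509 in the line labelled FUT4, 3089 to 5065 of 5166 in MC38-FUT9, 3925 to 4697 of 4736 in the difference of differences and 9315 to 10317 of 10088 over all lines. The members called were 0 to 2 in MC38-COSMC KO, MC38-CMAS KO and MC38-WT, 0 in every such fit of MC38-DKO, 2 to 3 in MC38-MOCK#2, the line labelled FUT4 and MC38-FUT9, 3 to 4 in the difference of differences and 6 to 8 over all lines.

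In the pairwise comparisons and the difference of differences, calls kept without any 1 sample were Mmp2 and Mmp3 in MC38-MOCK#2, Timp1 and Timp2 in the line labelled FUT4, Mmp3 and Timp1 in MC38-FUT9, and Mmp2, Mmp14 and Timp1 in the difference of differences. Over all lines, Mmp2, Mmp3, Mmp14, Timp1 and Timp2 were called in all 24 such fits (adjusted p up to 0.00189). Mmp3 in the line labelled FUT4 was lost without its sample 1 (adjusted p = 0.0549), and Mmp10 in MC38-FUT9 without its sample 1 (0.050002). Timp1 in MC38-CMAS KO was lost without sample 2 of MC38-MOCK#1 (0.0589) or of MC38-CMAS KO (0.0525). Mmp10 in the line labelled FUT4 was lost in all 6 such fits (up to 0.126). In MC38-COSMC KO, Mmp14 was lost without samples 1 (0.0609) or 2 (0.0681) of MC38-MOCK#1 or sample 2 of its own line (0.0761), and Mmp2 in 4 of 6 fits (up to 0.0744). In MC38-CMAS KO, Timp2 was lost in 4 (up to 0.0940) and Mmp2 in 5 of 6 (up to 0.115), in MC38-WT Mmp2 in 4 of 6 (up to 0.0970), and in MC38-MOCK#2 Mmp14 in 4 of 6 (up to 0.109). In MC38-MOCK#2, Mmp10 was called without sample 3 of MC38-MOCK#1 (0.0373), and in MC38-WT Mmp14 without sample 1 of MC38-WT (0.0427). Over all lines, Mmp10 was lost without sample 3 of MC38-MOCK#2 (0.0666), and Mmp13 was called without sample 1 of MC38-WT (0.0315), sample 2 of MC38-COSMC KO (0.0342) or sample 1 of MC38-MOCK#2 (0.0109).

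The replicate number was also used as a block, although in no comparison did all 3 numbers correlate above 0.1. It left 4 genes and 0 members called in MC38-COSMC KO (4669 genes at an unadjusted p under 0.05) and 1 and 0 in MC38-CMAS KO (3960). It left 0 and 0 in MC38-DKO (1408), 0 and 0 in MC38-WT (3788) and 1756 genes in the line labelled FUT4. The block called 2168 genes in MC38-MOCK#2, 4963 in MC38-FUT9, 4851 in the difference of differences and 9934 over all lines. With it, the called members were 3 in MC38-MOCK#2 (without Timp2, 0.119) and in the line labelled FUT4 (without Mmp10, 0.0830), 4 in MC38-FUT9 (with Mmp2, 0.0278) and in the difference of differences, and 8 over all lines (with Mmp13, 0.0498). With eBayes without a trend, the genes called were 1135 in MC38-COSMC KO, 726 in MC38-CMAS KO, 40 in MC38-DKO, 717 in MC38-WT, 1389 in MC38-MOCK#2, 2270 in the line labelled FUT4 and 3430 in MC38-FUT9, and the members 1 in MC38-COSMC KO (Mmp2), 2 in MC38-MOCK#2 (Mmp2 and Mmp3) and 2 in the difference of differences (Mmp2 and Mmp14). With all 8 lines in a single fit, they were 2207 genes in MC38-CMAS KO, 159 in MC38-DKO, 2981 in MC38-WT and 3976 in MC38-MOCK#2, with 4 members in MC38-WT (Mmp2, Mmp9, Mmp14 and Timp1) and 5 in MC38-FUT9. With a mean of at least 10, fewer genes were tested. In MC38-COSMC KO, 1 of the 3 members tested was called (Mmp14), and Mmp2 was not among those tested. In MC38-WT, 2 of 5 were called (Mmp2 and Mmp14). The cause of the added call was not tested.

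Signs turned only for members that were not called. With each sample rescaled to the same total, the log2 difference was -0.0152 for Mmp14 in MC38-CMAS KO, -0.0143 for Timp2 in MC38-WT, -0.0053 for Timp1 in MC38-MOCK#2 and -0.0528 for Timp2 in MC38-FUT9. Without 1 sample it ran from -0.19 to 0.0134 for Timp2 in MC38-COSMC KO, -0.0431 to 0.10 for Mmp14 in MC38-CMAS KO, -0.67 to 0.20 for Mmp9 in MC38-DKO and -0.0876 to 0.12 for Timp2 in MC38-WT. In MC38-MOCK#2 it ran from -0.0555 to 1.56 for Mmp9 and -0.0121 to 0.0314 for Timp1, and in the line labelled FUT4 from -0.76 to 0.85 for Mmp9 and -0.26 to 0.0037 for Mmp14. In MC38-FUT9 it ran from -0.44 to 1.17 for Mmp9, -0.21 to 0.0721 for Mmp14 and -0.0646 to 0.11 for Timp2, and in the difference of differences from -0.62 to 0.17 for Mmp9. The cause was not tested.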
